A study of Mus musculus with 11 samples.

Results

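The Notch pathway genes described here were 10 listed genes in neuroprogenitor cells (NPCs) of the mouse: the receptors *Notch1*, *Notch2* and *Notch3*, the ligands *Dll1*, *Dll3* and *Jag1*, the DNA-binding mediator *Rbpj* and the target genes *Hes1*, *Hes5* and *Hey1*. They were chosen by name, and all 10 were found among the 53801 gene identifiers counted. NPCs were taken from the brains of E13.5 embryos of mixed C57BL/6 and 129SV background and cultured with EGF and bFGF, and their total RNA was sequenced in 11 libraries after ribosomal RNA was removed. Cells of all 3 groups carried *Smg6* flox/flox alleles. The Ctr group was *Smg6* flox/flox; Rosa26-CreERT2 without 4-hydroxytamoxifen (4-OHT), from embryos SMH_128, SMH_132 and SMH_133 as numbered in the labels. The Ctr + 4-OHT group was *Smg6* flox/flox without CreERT2, given 1 µM 4-OHT, from embryos SMH_125, SMH_126, SMH_129 and SMH_131. The *Smg6*-iKO group was *Smg6* flox/flox; Rosa26-CreERT2 given 1 µM 4-OHT, from embryos SMH_127, SMH_128, SMH_132 and SMH_133, so that 3 embryos gave both a Ctr and a *Smg6*-iKO library. Rosa26 is a broadly active locus that drives CreERT2, and 4-OHT activates it. The labels give 3 days with 4-OHT and the RNA was taken 6 days after its start. Ctr + 4-OHT differs from Ctr in 4-OHT, in CreERT2 and in the embryos used, and these cannot be told apart.

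Notch signalling passes between neighbouring cells. A ligand of the Delta or Jagged family on one cell binds a Notch receptor on the next, the receptor is cleaved, and its intracellular part joins RBPJ on DNA and switches on genes of the Hes and Hey families. The proteins made from those genes are repressors of proneural genes, and in the embryonic brain the pathway is known for keeping progenitors from differentiating into neurons.

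The promoter of *Hes5* is shown because *Hes5* had the largest fold change of the 10 genes and because RBPJ is known to bind the letters GTGGGAA. A RefSeq promoter was found for 8 of the 10 genes, in build GRCm38.p6, and the 250 bases before the start were searched for GTGGGAA and, for the other strand, TTCCCAC. None was found for *Hes1* and *Hey1*, so *Hes5* was the only target gene of the 10 that was searched. The *Hes5* window, at chr4:154960673-154960922 on the plus strand, held 2 matches, given in capitals, whose leftmost bases lie at -226 and -83 from the start. The one farther from the start is on the reverse strand, the nearer one on the forward strand, and they do not overlap.
Hes5: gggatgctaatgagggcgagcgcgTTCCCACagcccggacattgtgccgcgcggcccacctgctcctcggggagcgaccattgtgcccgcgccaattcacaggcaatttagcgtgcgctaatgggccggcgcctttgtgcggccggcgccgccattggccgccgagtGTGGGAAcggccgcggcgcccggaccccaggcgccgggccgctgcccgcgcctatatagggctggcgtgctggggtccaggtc
The windows of *Notch1*, *Notch2*, *Notch3*, *Dll1*, *Dll3*, *Jag1* and *Rbpj* held 0 matches. Of 32851 promoters, 5.42% held at least 1 match and 0.161% held 2 or more. A match describes the letters of this window only.

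The counts on genes summed to between 26418249 and 33756875 in each library. *Smg6* itself was at 74.4 ± 4.96 CPM (read counts scaled to the library total after TMM normalization; SD, n = 3) in Ctr, 69.3 ± 3.22 CPM (n = 4) in Ctr + 4-OHT and 66.0 ± 4.57 CPM (n = 4) in *Smg6*-iKO. Its log2 fold change in *Smg6*-iKO was -0.17 against Ctr (adjusted p = 0.148) and -0.059 against Ctr + 4-OHT (adjusted p = 0.703), and a count over the whole gene does not show which exons were removed, so the group names here rest on the labels. All 8 progenitor markers on the list, among them *Sox2* and *Nes*, were expressed in every library, with a summed level of 5188 to 6751 CPM. Neuron markers summed to 1775 to 2902 CPM, with *Map2* the highest at a mean of 904 CPM in Ctr. Astrocyte markers summed to 567 to 690.5 CPM. Most of that sum was *Aldh1l1* and *Slc1a2*, at means of 421 and 171 CPM in Ctr, beside *Aqp4*, *Gfap* and *S100b* at 34.8, 17.7 and 1.52 CPM. Which cell types gave this RNA was not tested. Oligodendrocyte lineage markers summed to 617 to 680.4 CPM in Ctr, 687 to 918 CPM in Ctr + 4-OHT and 603 to 737 CPM in *Smg6*-iKO, so that every Ctr + 4-OHT library lay above every Ctr library. Endothelial markers summed to 5.37 to 8.66 CPM, microglia markers to 1.23 to 3.88 CPM and erythroid markers to at most 0.128 CPM. In bulk RNA, fewer cells of a type and less RNA per cell cannot be told apart.

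Against Ctr, 4 of the 10 Notch genes were lower in *Smg6*-iKO and 0 were higher (edgeR's quasi-likelihood test, Benjamini-Hochberg adjusted p under 0.05). The 4 were *Hes5*, *Hey1*, *Dll1* and *Notch1*. Over all genes tested in that comparison, 4.98% were lower and 4.27% higher, 9.25% in all, that is 896 and 767 genes, which became 694 and 1089 with upper-quartile normalization and 1405 and 550 with the length correction. All 10 log2 fold changes were below 0, and their median was -0.23, beside 0.0055 over all 17974 genes tested. Against Ctr + 4-OHT, 0 of the 10 genes passed the same test, while 1.17% of 17558 genes did, 0.416% lower and 0.757% higher. The direction of these calls over all genes depended on the setting, with more genes higher than lower here, but 94 higher and 156 lower with the length correction and 387 higher and 493 lower by DESeq2. At an unadjusted p under 0.05 there were 3 (*Dll3*, *Hes5* and *Jag1*), beside 16.7% of all genes, and limma-voom called 0. DESeq2 called 1 (*Hes5*), beside 1.37% of 36098 genes called lower. DESeq2 and the fits without the filter also tested genes of low counts, so their shares are not on the scale of the other shares. The median of the 10 log2 fold changes against Ctr + 4-OHT was -0.055, beside 0.012 over all genes. Between the controls the median was -0.22, with 8 of the 10 values below 0, close to that of *Smg6*-iKO against Ctr. Both *Smg6*-iKO comparisons use the same *Smg6*-iKO libraries, and both comparisons against Ctr the same Ctr libraries.

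**Figure D1:**
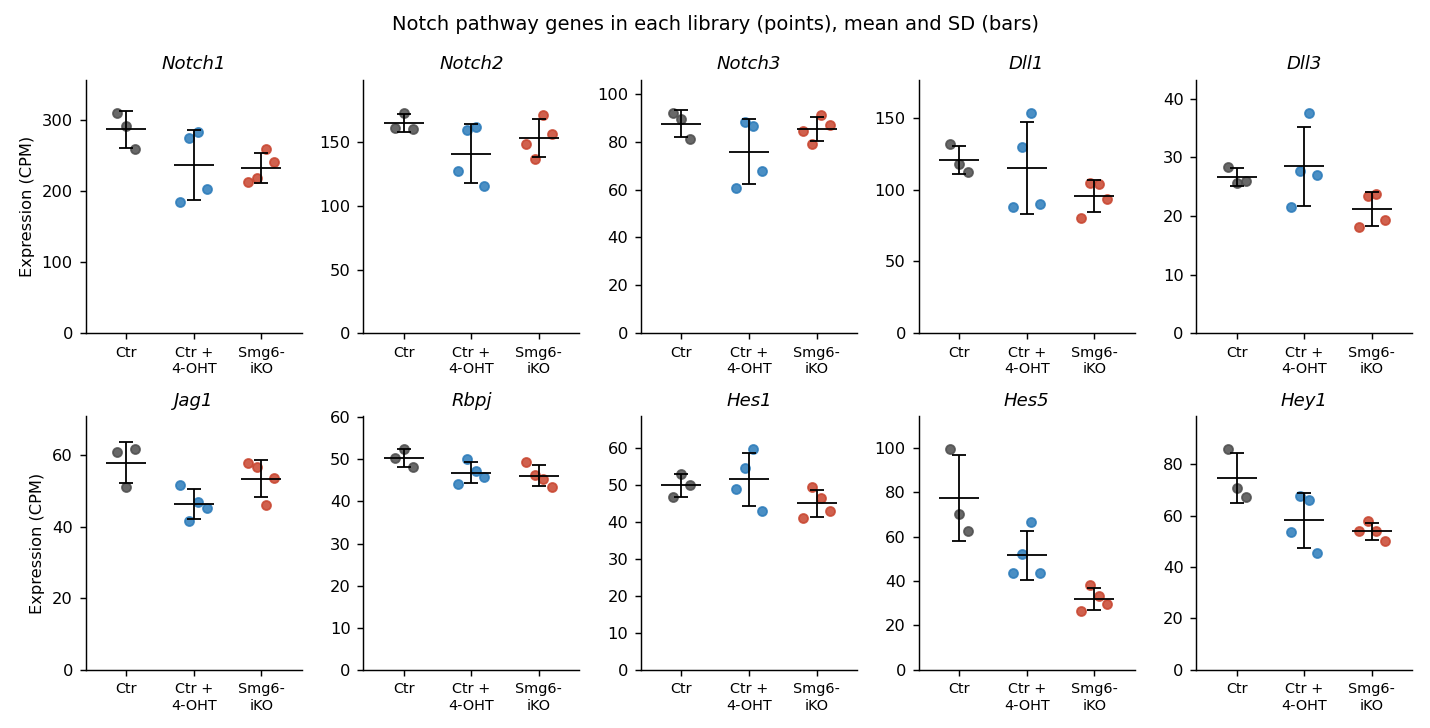
Expression of the 10 Notch pathway genes in CPM (vertical axes, from 0) in every library of Ctr (grey, n = 3), Ctr + 4-OHT (blue, n = 4) and *Smg6*-iKO (red, n = 4). Points are libraries, in order of embryo number, and bars are mean and SD. *Hes5* in *Smg6*-iKO, at 26.4 to 38.2 CPM, lay below every library of both control groups.

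*Hes5*, a repressor of proneural genes and a direct target of Notch signalling in neural progenitors, had the lowest level in *Smg6*-iKO relative to both controls. The gene (ENSMUSG00000048001) lies on chromosome 4 of GRCm38 from 154960923 to 154962371. In Ctr it was at 99.3, 70.4 and 62.6 CPM in embryos SMH_128, SMH_132 and SMH_133. In Ctr + 4-OHT it was at 43.4, 52.3, 66.7 and 43.7 CPM in embryos SMH_125, SMH_126, SMH_129 and SMH_131. In *Smg6*-iKO it was at 26.4, 38.2, 33.2 and 29.6 CPM in embryos SMH_127, SMH_128, SMH_132 and SMH_133. The highest *Smg6*-iKO library thus lay below the lowest library of either control, whereas Ctr and Ctr + 4-OHT overlapped. Its mean in *Smg6*-iKO was 41.1% of that in Ctr and 61.8% of that in Ctr + 4-OHT. Against Ctr the log2 fold change was -1.28 (SE 0.155, adjusted p = 0.00186), and *Hes5* stayed below the threshold in all 9 other settings and in all 7 fits that left out a library, with log2 fold changes between -1.42 and -1.06. Against Ctr + 4-OHT it was -0.69 (SE 0.152, 95% confidence interval -1.02 to -0.35), with an adjusted p of 0.0647 that missed the threshold. That p depended on the setting. It was 0.0018 without the filter on low counts, where 0.51% of 36104 genes were lower, and 0.000661 by DESeq2's Wald test. With a correction for gene length it was 0.0466, and with all 11 libraries in one fit 0.0498. It lay between 0.0598 and 0.0689 with other scalings or limma-voom. Leaving out a library gave log2 fold changes from -0.79 to -0.54, of which 0 of 8 passed.

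Of the 10 genes, *Hes5* also had the largest log2 fold change between the controls. Its mean in Ctr + 4-OHT was 66.5% of that in Ctr, and the log2 fold change was -0.59 (SE 0.183, 95% confidence interval -0.996 to -0.18, adjusted p = 0.401). In the comparison of the controls 0 of the 10 genes passed, beside 0.221% of 17665 genes tested. The count was 3 at an unadjusted p under 0.05 (*Hes5*, *Hey1* and *Jag1*), beside 8.28% of all genes. It was 0 by limma-voom and by DESeq2, which called 0.486% of 34560 genes. Without the filter on low counts, where 0.408% of 34564 genes were lower, *Hes5* passed (adjusted p = 0.01). The fold change of *Hes5* against Ctr was therefore larger than that against Ctr + 4-OHT by a difference that did not itself pass the test.

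*Hey1*, another target repressor (chromosome 3, 8663359 to 8667256), was at 85.8, 71.0 and 67.4 CPM in Ctr. In Ctr + 4-OHT it was at 53.5, 67.9, 66.0 and 45.5 CPM, and in *Smg6*-iKO at 54.0, 57.8, 53.9 and 49.96 CPM. Every *Smg6*-iKO library lay below every Ctr library and inside the range of Ctr + 4-OHT. The log2 fold change was -0.47 against Ctr (SE 0.0856, adjusted p = 0.01) and -0.099 against Ctr + 4-OHT (95% confidence interval -0.36 to 0.16, adjusted p = 0.724). The call against Ctr was lost with all 11 libraries in one fit (adjusted p = 0.0552). Between the controls the value was -0.36 (adjusted p = 0.532).

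*Hes1*, the third target repressor (chromosome 16, 30064384 to 30067796), did not pass in any comparison. Its levels were 46.7, 53.1 and 50.2 CPM in Ctr, 49.1, 54.8, 59.7 and 43.1 CPM in Ctr + 4-OHT, and 41.0, 49.6, 46.5 and 43.2 CPM in *Smg6*-iKO. The groups overlapped in both comparisons. The log2 fold change was -0.15 against Ctr (95% confidence interval -0.32 to 0.016, adjusted p = 0.229) and -0.19 against Ctr + 4-OHT (95% confidence interval -0.41 to 0.040, adjusted p = 0.394). The interval against Ctr did not reach that of *Hes5*, which ran from -1.63 to -0.94.

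Among the receptors, *Notch1* (chromosome 2, 26457903 to 26516663) was at 310.0, 290.9 and 258.6 CPM in Ctr. In Ctr + 4-OHT it was at 184.9, 274.6, 282.6 and 202.6 CPM, and in *Smg6*-iKO at 213.2, 217.7, 259.2 and 240.3 CPM. The highest *Smg6*-iKO library, of embryo SMH_132, overlapped the lowest Ctr library by less than 1 CPM. *Notch1* had a log2 fold change of -0.30 against Ctr (SE 0.0824, adjusted p = 0.0465) and -0.011 against Ctr + 4-OHT (95% confidence interval -0.31 to 0.29, adjusted p = 0.976). The call against Ctr lay close to the threshold. It was lost with upper-quartile normalization (adjusted p = 0.069), with all 11 libraries in one fit (0.221), and without Ctr embryo SMH_128 (0.166) or SMH_132 (0.128), or *Smg6*-iKO embryo SMH_127 (0.105), SMH_128 (0.063) or SMH_133 (0.0927).

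*Notch2* (chromosome 3, 98013527 to 98150361) ranged from 160.7 to 173.4 CPM in Ctr, from 115.8 to 161.9 CPM in Ctr + 4-OHT and from 136.9 to 171.9 CPM in *Smg6*-iKO. *Notch3* (chromosome 17, 32120820 to 32166880) ranged from 81.0 to 92.1, from 60.8 to 88.1 and from 78.8 to 91.1 CPM in the same order. Neither passed in any comparison, and the groups overlapped throughout. Against Ctr the log2 fold changes were -0.10 for *Notch2* (95% confidence interval -0.27 to 0.060) and -0.038 for *Notch3* (-0.18 to 0.11). Against Ctr + 4-OHT they were 0.13 (adjusted p = 0.61) and 0.18 (adjusted p = 0.469). The annotation places *Gm42819* and *Gm42820* on the strand of *Notch2* within its span and *Mir6996* on that of *Notch1*, and reads that fell in 2 genes were counted for neither.

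The receptors varied together among the Ctr + 4-OHT embryos. All 3 were lower in embryos SMH_125 and SMH_131 than in embryos SMH_126 and SMH_129, for *Notch1* at 184.9 and 202.6 against 274.6 and 282.6 CPM. In all, 9 of the 10 genes had their 2 lowest values of the group in embryos SMH_125 and SMH_131, the exception being *Jag1*, which was highest in SMH_125. Summed neuron markers were 2902 and 2690 CPM in those embryos and 2180 and 1775 CPM in embryos SMH_126 and SMH_129, and summed progenitor markers were 5535 and 5690 against 5847 and 6751 CPM. The part of cell composition in these values was not tested.

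Of the ligands, *Dll1* (chromosome 17, 15367354 to 15376872), a ligand of differentiating progenitors that activates Notch in their neighbours, was at 131.9, 117.8 and 112.3 CPM in Ctr. In Ctr + 4-OHT it was at 88.2, 129.6, 153.6 and 89.7 CPM, and in *Smg6*-iKO at 80.002, 104.4, 104.1 and 93.8 CPM. Every *Smg6*-iKO library lay below every Ctr library, and the range of Ctr + 4-OHT overlapped both. Against Ctr it was lower by a log2 fold change of -0.34 (SE 0.0928, adjusted p = 0.0471). The call was lost with upper-quartile normalization (0.0611), with all 11 libraries in one fit (0.268), and without Ctr embryo SMH_128 (0.164), SMH_132 (0.102) or SMH_133 (0.065), or *Smg6*-iKO embryo SMH_127 (0.0726), SMH_132 (0.0509) or SMH_133 (0.115). Against Ctr + 4-OHT the value was -0.26 (95% confidence interval -0.65 to 0.12, adjusted p = 0.487).

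*Dll3* (chromosome 7, 28293553 to 28302238), a Delta family member that is known to act inside the cell on Notch of the same cell, was at 28.4, 25.6 and 26.1 CPM in Ctr. In Ctr + 4-OHT it was at 21.5, 27.6, 37.6 and 27.0 CPM, and in *Smg6*-iKO at 18.1, 23.4, 23.8 and 19.3 CPM. Every *Smg6*-iKO library again lay below every Ctr library. The log2 fold change was -0.34 against Ctr (adjusted p = 0.0598) and -0.42 against Ctr + 4-OHT (95% confidence interval -0.77 to -0.068, adjusted p = 0.22), and neither passed. Against Ctr it passed without the filter on low counts (0.00387, with 3.49% of 35861 genes lower) and by DESeq2 (0.0169, with 3.91% of 35855 genes lower). It also passed with the length correction (0.038), and without *Smg6*-iKO embryo SMH_128 (0.0344) or SMH_132 (0.0484).

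*Jag1*, a Jagged family ligand (chromosome 2, 137081456 to 137116644), was the ligand whose value had opposite signs against the controls. It was at 61.0, 51.3 and 61.7 CPM in Ctr, at 51.7, 41.7, 46.9 and 45.3 CPM in Ctr + 4-OHT, and at 57.8, 56.7, 46.1 and 53.6 CPM in *Smg6*-iKO. The log2 fold change of *Smg6*-iKO was -0.11 against Ctr (adjusted p = 0.46) and 0.22 against Ctr + 4-OHT (95% confidence interval 0.026 to 0.41, adjusted p = 0.238), and that of Ctr + 4-OHT against Ctr was -0.32 (adjusted p = 0.386). None of the 3 passed. *Rbpj* (chromosome 5, 53466152 to 53657362), which carries the signal of all Notch receptors to DNA, had the narrowest spread of the 10 genes, from 43.4 to 52.4 CPM over the 11 libraries. Its log2 fold change was -0.13 against Ctr (adjusted p = 0.22) and -0.011 against Ctr + 4-OHT (95% confidence interval -0.15 to 0.13).

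In counts of libraries, 4 of the 10 genes had every *Smg6*-iKO library below every Ctr library (*Hes5*, *Hey1*, *Dll1* and *Dll3*), beside 11.9% of all genes tested, and 0 had every one above, beside 11.4%. Against Ctr + 4-OHT there was 1 such gene (*Hes5*), beside 5.99%. Between the controls all 10 genes overlapped, while 4.91% of all genes had every Ctr + 4-OHT library below and 3.8% above every Ctr library.

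**Figure D2:**
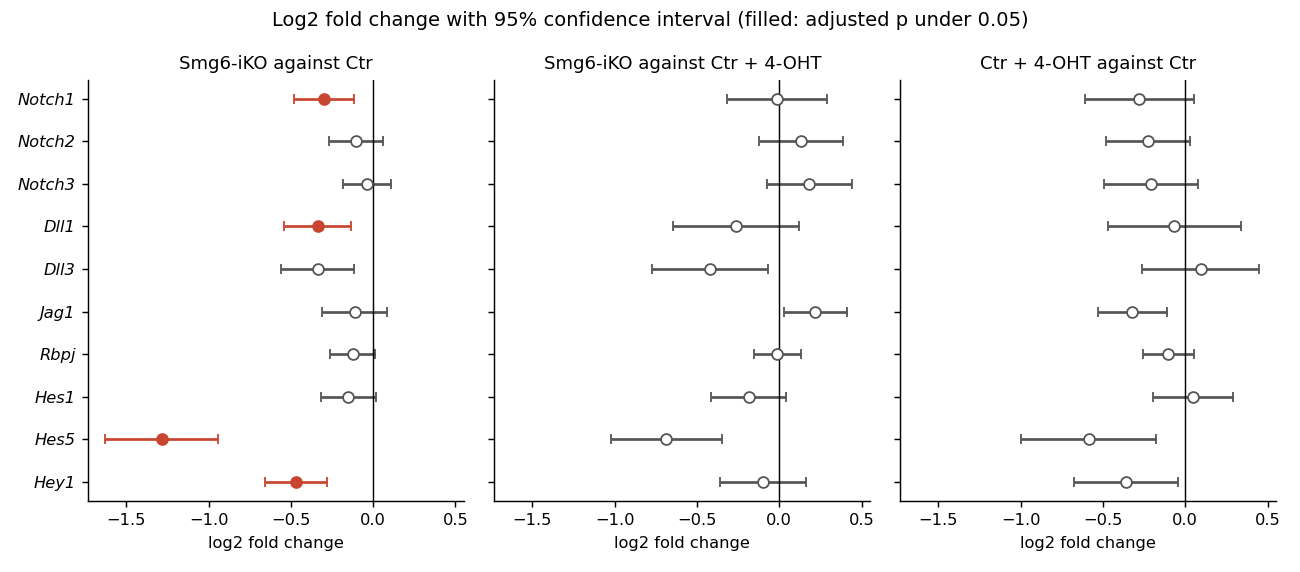
Log2 fold change of the 10 genes (horizontal axis) with its 95% confidence interval in the 3 comparisons, from edgeR's quasi-likelihood fit to the groups compared. Filled red points have an adjusted p under 0.05. The 4 filled points stand in *Smg6*-iKO against Ctr, led by *Hes5* at -1.28, and the other comparisons have none.

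The embryos that gave both a Ctr and a *Smg6*-iKO library let the comparison be made within an embryo. In each of embryos SMH_128, SMH_132 and SMH_133, 8 of the 10 genes were lower in *Smg6*-iKO than in Ctr, beside 25.9% of 17897 genes, and 0 were higher in all 3, beside 25.8%. *Notch3* was lower in 1 of 3 embryos and *Hes1* in 2 of 3. The log2 difference of *Hes5* was -1.38, -1.08 and -1.08 in embryos SMH_128, SMH_132 and SMH_133, that of *Hey1* was -0.57, -0.40 and -0.43, and that of *Dll1* was -0.34, -0.18 and -0.26.

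With the embryo as a block in edgeR, which draws on these 3 embryos and takes no difference from *Smg6*-iKO embryo SMH_127, 7 of the 10 genes were lower and 0 higher, beside 11.2% lower and 10.3% higher over all genes. In this fit the log2 fold change was -1.19 for *Hes5* (adjusted p = 1.08e-09), -0.47 for *Hey1* (1.04e-05), -0.26 for *Dll1* (0.00105) and -0.26 for *Notch1* (0.00751). *Dll3*, at -0.27 (0.0143), passed here as in some settings without the block, and *Rbpj* at -0.16 (0.0458) and *Jag1* at -0.15 (0.0475) passed with the block alone or with the block and length correction. *Notch2*, *Notch3* and *Hes1* did not pass in this fit either, at -0.094, -0.033 and -0.11.

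**Figure D3:**
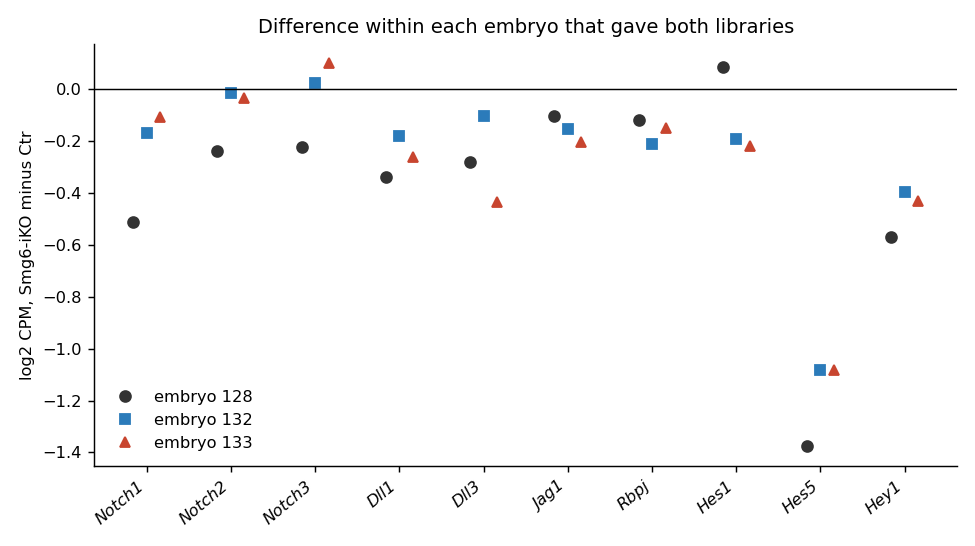
Difference in log2 CPM, *Smg6*-iKO minus Ctr (vertical axis), for the 10 genes within embryos SMH_128 (circles), SMH_132 (squares) and SMH_133 (triangles). Points below 0 are lower in *Smg6*-iKO, and *Hes5* lies lowest, at -1.38, -1.08 and -1.08.

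Levels of different genes were compared as RPKM, that is CPM for each 1000 bases of exon. In Ctr the order was *Hes5* at 56.8 ± 14.2 RPKM (SD, n = 3), *Dll1* at 28.6 ± 2.40, *Hes1* at 24.6 ± 1.57, *Hey1* at 22.9 ± 2.99, *Notch1* at 20.1 ± 1.83, *Notch2* at 15.3 ± 0.665, *Notch3* at 10.9 ± 0.721, *Jag1* at 9.95 ± 0.995, *Dll3* at 9.36 ± 0.523 and *Rbpj* at 3.94 ± 0.164. In that order *Hes1*, *Hey1* and *Notch1* overlapped their neighbours, as did *Notch3*, *Jag1* and *Dll3*, whereas *Hes5* lay apart from *Dll1*. In *Smg6*-iKO *Hes5* was at 23.4 ± 3.72 RPKM (n = 4) and its libraries overlapped those of *Dll1* at 22.6 ± 2.72, which overlapped those of *Hes1* at 22.1 ± 1.85. In Ctr + 4-OHT *Hes5*, at 31.9 to 48.9 RPKM, already overlapped *Dll1* at 20.9 to 36.4 RPKM. *Rbpj* was the lowest in all 3 groups.

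**Figure D4:**
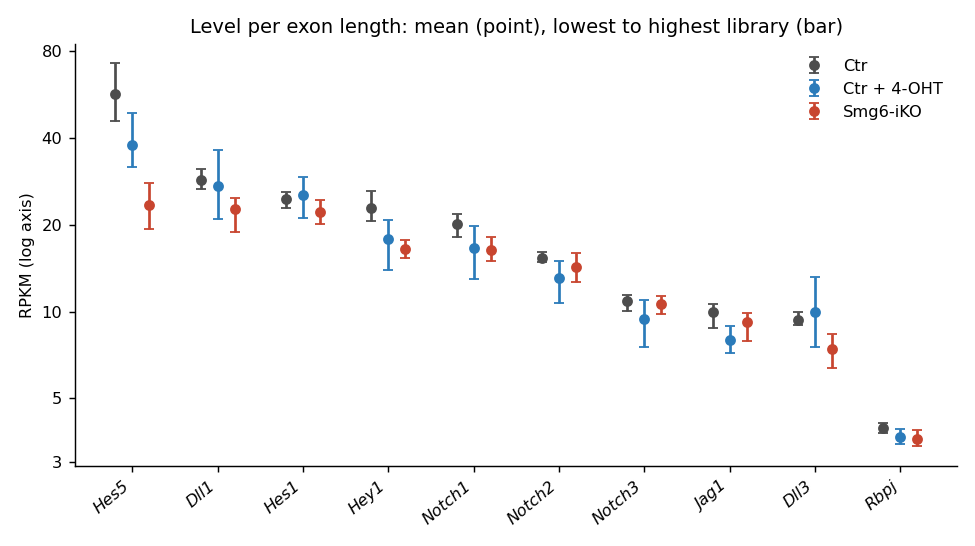
Level per exon length (RPKM, log axis) of the 10 genes, ordered by their mean in Ctr, in Ctr (grey), Ctr + 4-OHT (blue) and *Smg6*-iKO (red). Points are means and bars run from the lowest to the highest library. *Hes5* stands above the other genes in Ctr and level with *Dll1* and *Hes1* in *Smg6*-iKO.

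A further 52 genes of the pathway were listed, of which 51 had enough counts to be tested and *Hes3* did not. Against Ctr, 5 of the 51 were lower in *Smg6*-iKO and 0 higher, beside 4.98% lower and 4.27% higher over all genes, and the median log2 fold change of the 51 was -0.048. *Neurl1b*, a ubiquitin ligase of Notch ligands, fell by 0.44 on the log2 scale (adjusted p = 0.00857), from 72.1 ± 7.48 CPM in Ctr to 53.1 ± 2.95 CPM. *Nrarp*, a Notch target and inhibitor of the pathway, fell by 0.39 (adjusted p = 0.00419), from 45.0 ± 0.989 to 34.2 ± 1.78 CPM. *Mfng*, a glycosyltransferase of Notch receptors, fell by 0.27 (adjusted p = 0.0431). Of the coactivators, *Maml1* fell by 0.25 (0.0485) and *Snw1* by 0.22 (0.0394). *Neurl1b* and *Nrarp* passed in all 9 other settings and in all 7 fits without a library. *Mfng* and *Snw1* passed in 7 of those 9 settings and *Maml1* in 5. All of these calls were lost with upper-quartile normalization and with all 11 libraries in one fit, and that of *Maml1* also without the filter and with limma-voom. Of the 7 fits without a library, *Mfng* passed in 2 (without Ctr embryo SMH_132 or *Smg6*-iKO embryo SMH_128), *Snw1* in 1 (without *Smg6*-iKO embryo SMH_128) and *Maml1* in 0. Adjusted p there reached 0.163, 0.112 and 0.122. With the embryo as a block 16 of the 51 passed, 11 lower and 5 higher, beside 21.4% of all genes.

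Against Ctr + 4-OHT, *Nrarp* was the 1 gene of the 51 to pass, beside 0.416% lower over all genes (log2 fold change -0.30, adjusted p = 0.0407), with Ctr + 4-OHT at 42.5 ± 1.47 CPM (n = 4). It passed in all 7 other settings, but in 1 of the 8 fits that left out a library, the one without *Smg6*-iKO embryo SMH_128. Its adjusted p was 0.0667, 0.0656, 0.0681 and 0.0813 without Ctr + 4-OHT embryo SMH_125, SMH_126, SMH_129 and SMH_131, and 0.146, 0.152 and 0.128 without *Smg6*-iKO embryo SMH_127, SMH_132 and SMH_133. In the comparison of the controls 0 of the 51 passed, with 5 at an unadjusted p under 0.05, near the 8.28% of all genes, and 0 by DESeq2 or limma-voom. None of the 9 listed genes of receptor cleavage, among them *Adam10* and *Ncstn*, and none of the 10 corepressors passed in either *Smg6*-iKO comparison by edgeR. At an unadjusted p under 0.05 there was 1 gene of these roles in each, *Psen2* against Ctr and *Ctbp1* against Ctr + 4-OHT. Of all 51 genes there were 13 against Ctr and 6 against Ctr + 4-OHT, beside 26.9% and 16.7% of all genes. Of the other Hes and Hey genes, *Hes6* was at 94.4 ± 6.83 CPM in Ctr and 83.6 ± 5.62 CPM in *Smg6*-iKO (adjusted p = 0.135) and *Hey2* at 8.20 ± 1.67 and 5.77 ± 1.21 CPM (adjusted p = 0.103), while *Hes7* and *Heyl* were near or below 1 CPM. *Hey2* was lower in all 3 shared embryos (log2 differences -0.37, -0.52 and -0.57) and passed against Ctr without the filter, with DESeq2 and with the block with or without the length correction, and *Hes6* passed with the block, with or without that correction, and without *Smg6*-iKO embryo SMH_128.

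**Figure D5:**
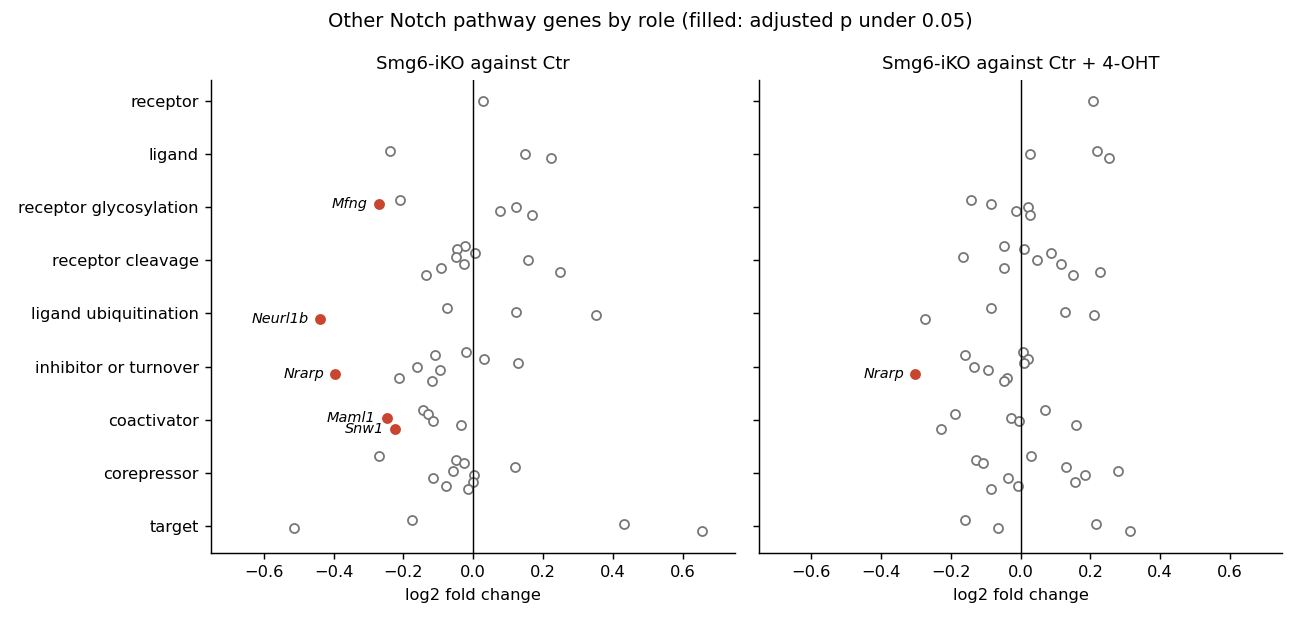
Log2 fold change (horizontal axis) of the 51 other pathway genes tested, by role, in *Smg6*-iKO against Ctr (left) and against Ctr + 4-OHT (right). Filled and named points have an adjusted p under 0.05: 5 genes on the left and *Nrarp* on the right, all below 0.

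Proneural genes, which Hes and Hey proteins repress, were read beside them. Of the 8 listed, 0 passed against Ctr, with 2 at an unadjusted p under 0.05 (26.9% of all genes), 1 by DESeq2 and 0 by limma-voom. *Neurog2*, *Neurod1*, *Insm1* and *Btg2* had log2 fold changes of -0.13, 0.11, -0.062 and -0.15 against Ctr and did not pass against either control, although with the embryo block and length correction together *Neurog2* (adjusted p = 0.0396) and *Btg2* (0.0283) were lower against Ctr. Against Ctr + 4-OHT, 1 of 7 tested genes rose, beside 0.757% of all genes: *Gadd45g*, an early neurogenic and stress gene, at 29.2 ± 1.77 CPM against 21.2 ± 1.95 CPM (log2 fold change 0.47, adjusted p = 0.0256). The adjusted p of *Gadd45g* reached 0.0685 without Ctr + 4-OHT embryo SMH_125, 0.0647 without SMH_131, and 0.0876, 0.0977 and 0.102 without *Smg6*-iKO embryo SMH_127, SMH_132 and SMH_133. Against Ctr, where *Gadd45g* was at 25.8 ± 1.92 CPM, its value was 0.18 (adjusted p = 0.153).

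Of the 8 progenitor markers, 4 were lower in *Smg6*-iKO against Ctr and 0 higher, beside 4.98% lower over all genes. They were *Prom1* (log2 fold change -0.54), *Sox2* (-0.47), *Pax6* (-0.45) and *Fabp7* (-0.29), and the summed level was 6114 to 6557 CPM in Ctr and 5188 to 6082 CPM in *Smg6*-iKO. Neuron markers summed to 1941 to 2179 CPM in Ctr and 2269 to 2631 CPM in *Smg6*-iKO, with 0 of 8 called. Against Ctr + 4-OHT 0 of the 8 progenitor and 0 of the 8 neuron markers were called. The part of these markers in the values of the Notch genes was not tested. Of the 5 astrocyte markers, *Gfap* alone was called against Ctr (log2 fold change 1.33, adjusted p = 0.0288), while *Aqp4*, *Aldh1l1* and *Slc1a2* were at 0.11, -0.12 and -0.10. *S100b* had the sign of *Gfap*, at 0.56 (adjusted p = 0.37), from low levels of 1.52 CPM in Ctr and 2.28 CPM in *Smg6*-iKO. *Gfap* itself spanned 5.14 to 78.2 CPM within Ctr + 4-OHT, and the summed astrocyte level was 582 to 690.5 CPM in Ctr and 567 to 673 CPM in *Smg6*-iKO. Of the 3 mural markers tested, *Acta2* alone was called against Ctr (-1.74), at 6.30 ± 2.25 CPM in Ctr, 1.78 ± 0.723 CPM in Ctr + 4-OHT and 1.85 ± 0.697 CPM in *Smg6*-iKO, while *Rgs5* and *Pdgfrb* were at 0.43 and -0.0055. The summed mural level was 19.9 to 27.5 CPM in Ctr, 9.82 to 27.0 CPM in Ctr + 4-OHT and 11.6 to 30.04 CPM in *Smg6*-iKO.

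For the 4 genes called against Ctr, the genes most like them over the 11 libraries were sought among 10429 genes with a mean of at least 10 CPM, by the mean absolute difference of log2 CPM centred on each gene's mean. *Notch1* was nearest to *Ephb3* (0.048), *Chd7* (0.052) and *Adgrg1* (0.057), beside its own mean deviation of 0.20. *Hey1* was nearest to *Slc7a2* (0.052), the progenitor gene *Pax6* (0.056) and *Abat* (0.060), beside 0.22. *Dll1* was nearest to *Sox8* (0.054), *Gm2a* (0.067) and the Hedgehog receptor *Ptch1* (0.070), beside 0.23. *Hes5* had no gene as near relative to its spread, the nearest being *Mfge8* (0.20), *Shisa8* (0.22) and *Esco2* (0.22), beside 0.48.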

How the data were processed

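Per the labels, the authors aligned stranded reads to GRCm38 with STAR 2.5.4b and, with featureCounts 1.5.0 (strand setting 2, Ensembl release 92), took reads with a single position in a single gene. The deposited values are these raw counts. Symbols and positions came from GENCODE M21, for 53620 of 53801 identifiers.

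Groups were taken from the labels. A comparison's fit took only the 2 groups compared, in R 4.3.3 with edgeR 4.0.16, after filterByExpr and TMM, by the quasi-likelihood F-test, with p-values adjusted by Benjamini-Hochberg over all genes tested and called under 0.05. CPM were computed after TMM over the 11 libraries, log2 CPM with a prior count of 2, and RPKM from the deposited exon lengths. Intervals are 95% intervals of the fit. Libraries held 26418249 to 33756875 counts, and the lowest count of a listed Notch gene in a library was 578. P-values over embryos cover the spread between embryos and counting error. In *Smg6*-iKO against Ctr, 3 embryos gave libraries to both groups, and the fits without the block treat these libraries as independent. With the block, p-values there cover the spread of the differences within those 3 embryos.

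The alternatives were DESeq2's size factors, upper-quartile normalization, no filter, all 11 libraries in one fit, DESeq2 1.42.0, limma-voom (limma 3.58.1), a length correction (loess, span 0.3), each library left out, and the embryo as a block, alone or with the length correction. Same-numbered libraries come from the same embryo. Their deviations from the group means correlated at 0.328 to 0.425, and those of different embryos at -0.265 to 0.0948. No 2 libraries of a group agreed within sampling noise, with a chi-square per gene of 9.99 to 38.6. The fits were tested on simulated data and recovered 88.8% of 197 genes changed by 2-fold in *Smg6*-iKO against Ctr, 80.9% of 199 in *Smg6*-iKO against Ctr + 4-OHT, 74.2% of 198 between the controls and 76.0% of 196 with the block, with 22, 15, 8 and 22 false calls. The simulated counts held no embryo effect, so they do not show how the block acts on paired libraries. Smaller changes than 2-fold were not simulated, so the recovery of such changes is not known.

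The 10 Notch genes, the pathway, proneural and marker lists and the tests were chosen with earlier results of these data known. Named genes were all 10 Notch genes, the other pathway genes called against either control (at most the 10 largest), proneural genes with a mean of at least 1 CPM, and the 3 genes most like each called Notch gene. *Hes6*, *Hes7*, *Hey2* and *Heyl* were named as the remaining Hes and Hey genes, and *Adam10*, *Ncstn*, *Psen2* and *Ctbp1* as examples or exceptions, after their values were seen. Single values of a few listed genes are not reported here.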

Additional observations from a re-analysis of the deposited data

How the results depend on the processing

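The count of Notch genes called in *Smg6*-iKO against Ctr was 4, and became 5 without the filter, with DESeq2 and with the length correction, 2 with upper-quartile normalization, 1 with all 11 libraries in one fit, 7 with the embryo block, 7 with the block and length correction, and 2 to 4 without a library. Against Ctr + 4-OHT the count was 0 and became 1 (*Hes5*) without the filter, with all 11 libraries, with DESeq2 and with the length correction, and 0 without any 1 library. Between the controls the count was 0 and became 1 (*Hes5*) without the filter. Of the other pathway genes, the 5 called against Ctr became 6 without the filter, 7 with DESeq2 and with the length correction, 4 with limma-voom, 2 with upper-quartile normalization, 2 with all 11 libraries, 16 with the block, 14 with the block and length correction, and 2 to 8 without a library. The 1 called against Ctr + 4-OHT became 2 with all 11 libraries, 3 with DESeq2, and 0 to 1 without a library.

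Over all genes, the 206 calls against Ctr + 4-OHT became 418 without the filter, 484 with all 11 libraries, 880 with DESeq2 and 66 to 174 without a library. The 1663 calls against Ctr became 2714 without the filter, 796 with all 11 libraries, 3854 with the block, 4076 with the block and length correction, and 570 to 2524 without a library. The 39 calls between the controls became 198 without the filter, 60 with all 11 libraries, 168 with DESeq2 and 5 to 54 without a library. Leaving out a library tests fewer samples, and the cause of the other changes was not tested.

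Several values that had not passed changed sign. Against Ctr + 4-OHT, *Notch1* was 0.0052 with upper-quartile normalization, 0.0089 with limma-voom and -0.12 to 0.082 without a library, and *Rbpj* was 0.0064 with upper-quartile normalization and -0.046 to 0.022 without a library. *Neurog2*, at -0.29 with all libraries, ranged from -0.47 to 0.073 without a library, the highest being without Ctr + 4-OHT embryo SMH_125, and *Neurod1*, at 0.14, from -0.10, without SMH_129, to 0.38. Against Ctr, *Notch3* ranged from -0.095 to 0.0024 and *Insm1* from -0.15 to 0.019 without a library. Between the controls, *Dll1* ranged from -0.24 to 0.049, *Dll3* from -0.070 to 0.21 and *Hes1* from -0.031 to 0.13 without a library. Mean levels of the 10 genes moved by less than 1 SD under both other scalings.

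With 3 or 4 embryos a group, log2 fold changes of the Notch genes had standard errors of 0.0616 to 0.173 in the *Smg6*-iKO comparisons. Differences larger than these also failed to pass, such as *Hes5* at -0.69 against Ctr + 4-OHT. A gene that did not pass may therefore still differ.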
